A study of Arabidopsis thaliana with 12 samples.

Results

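This account covers the 10 *Arabidopsis thaliana* genes that encode the enzymes of jasmonate synthesis from 13-lipoxygenase to 12-oxophytodienoate reductase. They are *LOX2*, *LOX3*, *LOX4*, *LOX6*, *AOS*, *AOC1*, *AOC2*, *AOC3*, *AOC4* and *OPR3*, and they were matched by locus identifier. The list was chosen with earlier results of these data known. All 10 were found among the 33323 loci of the expression tables, and all 10 passed the filter on low counts that left 19059 genes for testing. The lowest count of any of them in a library was 39, and the highest was 98788.

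Jasmonates are lipid hormones of defence, wounding and fertility. In the chloroplast a 13-lipoxygenase adds oxygen to linolenic acid, allene oxide synthase (AOS) turns the hydroperoxide into an unstable allene oxide, and an allene oxide cyclase (AOC) closes it to 12-oxophytodienoic acid (OPDA). OPDA moves to the peroxisome, where OPR3 reduces its ring and beta-oxidation shortens its side chain to jasmonic acid. The isoleucine conjugate of jasmonic acid marks JAZ repressors for breakdown through the receptor COI1, which frees MYC transcription factors. Genes of the pathway are themselves among the genes that jasmonate induces in leaves.

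RNA sequencing was done on whole rosettes, roots left out, of 25-day-old plants. The jazD cdk8-1 line combined the mutations of both lines that follow. The jazD line carried mutations in *JAZ1* to *JAZ7*, *JAZ9*, *JAZ10* and *JAZ13*, and the cdk8-1 line one in *CDK8*, the gene of the kinase that associates with the Mediator complex. Col-0 was the wild type, and the labels name no treatment. Each genotype had 3 libraries, each from a separate pool of about 10 plants raised together at 20 °C under 16 h of light and 8 h of dark, so that the error below is between pools. The title of the series names its question as the part that CDK8 takes in the defence gene expression of jazD.

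The 12 libraries held 17583467 to 21030374 counts, and log2 levels of all tested genes correlated at 0.9900 to 0.9925 between libraries of a genotype and at 0.9289 to 0.9811 between genotypes. *CDK8* had 49, 69 and 71 counts in jazD cdk8-1, 388, 409 and 339 in jazD, 46, 53 and 55 in cdk8-1 and 335, 370 and 406 in Col-0, so that every library matched its label at *CDK8*. The *jaz* alleles were not checked in this way, and *CDK8* does not tell jazD from Col-0 or jazD cdk8-1 from cdk8-1. Leaf identity was plain, since the summed level of 5 mesophyll markers was 39273 to 42455 CPM (counts scaled to library size) in jazD cdk8-1, 36078 to 40689 in jazD, 46089 to 50548 in cdk8-1 and 43864 to 47336 in Col-0. Of 9 root markers 3 were tested, with sums of 33.5 to 52.2 CPM over all libraries and with *PLT1* and *RHD6* at 0 in every library. Most of the sum came from *SCR* (genotype means of 23.9 to 35.3 CPM) and *SHR* (7.51 to 13.5 CPM). *NRT2.1* averaged 2.48 CPM in jazD, against 0.553 in Col-0. Of 8 floral markers 1 was tested, with sums of 0.688 to 2.51 CPM, and *AP1* was at 0 in the 3 mutant lines. A stretch of chromosome 5 from AT5G44490 to AT5G56910 held 23 of the 40 tested genes with a fitted level at least 8-fold lower in jazD than in Col-0, against 926 of all genes tested. The stretch holds none of the 10 genes, and of the other pathway genes it holds *KAT5*.

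The summed reads of the 10 genes were higher in both lines with *jaz* mutations, a sum to which *LOX2*, *AOS* and *AOC2* gave the most. Reads of the 10 genes made up 0.462% to 0.483% of all counts in jazD cdk8-1, 0.690% to 0.722% in jazD, 0.105% to 0.114% in cdk8-1 and 0.111% to 0.115% in Col-0. In jazD all 10 genes were called higher than in Col-0 (edgeR quasi-likelihood test, Benjamini-Hochberg adjusted p under 0.05 over all genes tested), where 21.8% of all tested genes were called higher and 20.9% lower. Their median log2 fold change was 1.74, against 0.00 over all genes. Without CDK8 the same 10 were called higher in jazD cdk8-1 than in cdk8-1, with a median of 1.32, where 12.7% of all genes were called higher. Since the tissue is a mixture of cells, a lower level in fewer cells of one type and a lower level in each cell cannot be told apart in these values.

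The loss of CDK8 was followed by lower levels in the jazD background. In jazD cdk8-1, 9 of the 10 genes were called lower than in jazD and none higher, with a median log2 fold change of −0.57, where 19.0% of all genes were called lower and 16.9% higher. *LOX6* was the exception. With intact *JAZ* genes, 5 were called lower in cdk8-1 than in Col-0 (*LOX2*, *LOX3*, *LOX4*, *LOX6* and *AOC3*) and 1 higher (*OPR3*), where 13.8% of all genes were called lower and 11.7% higher. Against Col-0, 8 of the 10 were called higher in jazD cdk8-1, all but *LOX3* and *LOX4*, where 16.3% of all genes were called higher and 16.1% lower. The comparisons share libraries, so their counts are not independent of each other.

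The deposited TPM values (transcripts scaled to gene length and library), which were not normalised further between libraries, move these backgrounds. In jazD cdk8-1 against jazD the median of all genes was 0.13 on that scale, and 75.7% of called genes were higher, against 47.1% with the counts. Genes called higher made up 37.9% of all calls with TPM against 51.0% with the counts in jazD against Col-0, 69.4% against 45.9% in cdk8-1 against Col-0, and 66.8% against 50.4% in jazD cdk8-1 against Col-0. On TPM (limma) 8 of the 10 genes were called lower in jazD cdk8-1 than in jazD, where 10.9% of all tested genes were called lower and 34.0% higher. In cdk8-1 against Col-0, 4 were called higher and 4 lower on TPM, where 20.7% of all genes were called higher and 9.12% lower.

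**Figure D1:**
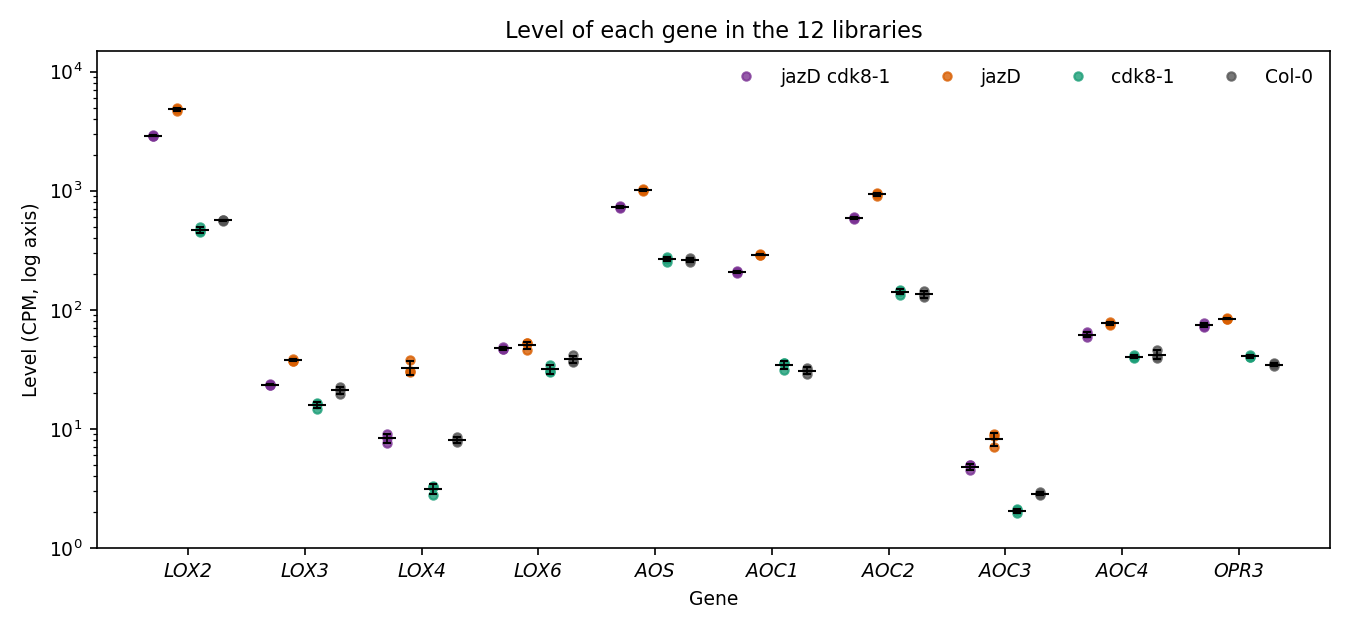
Level of each of the 10 genes in CPM on a log axis, with 3 points per genotype, 1 for each library, and a bar for the mean with its SD. Points of jazD cdk8-1 lie between those of jazD and Col-0 for *LOX2*, *LOX3*, *AOS*, *AOC1*, *AOC2*, *AOC3*, *AOC4* and *OPR3*, and *LOX4* in jazD cdk8-1 lies at the level of Col-0.

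**Figure D2:**
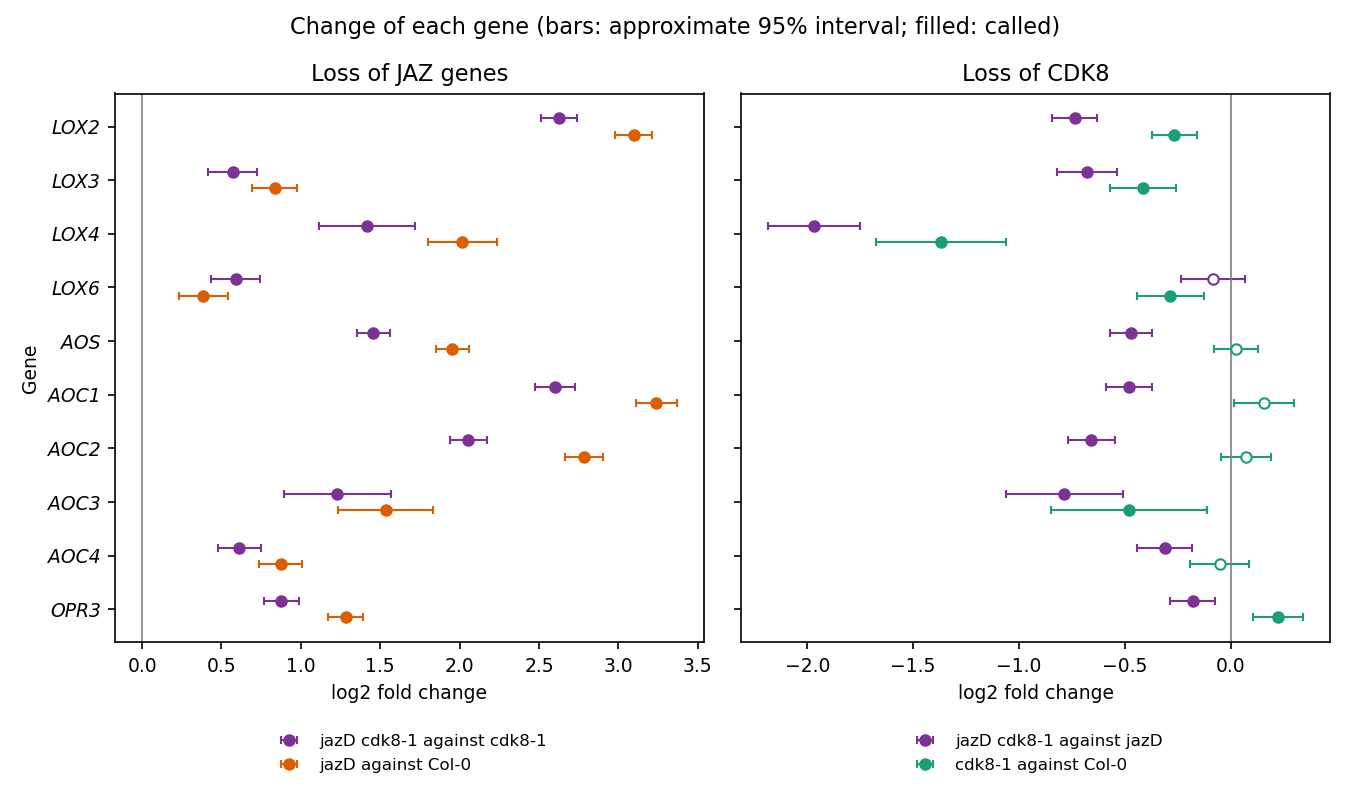
Log2 fold change of each gene, with an approximate 95% interval from the fit to 12 libraries, for the loss of *JAZ* genes without and with CDK8 (left) and for the loss of CDK8 in jazD and with intact *JAZ* genes (right). Filled points passed an adjusted p of 0.05, and all points on the left lie above 0, while on the right *LOX4* lies farthest below 0 in both comparisons.

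Of the 13-lipoxygenase genes, *LOX2* was the most abundant and *LOX4* was the one whose jazD level was lowered most without CDK8, and the bases before their annotated starts are shown for comparison (RefSeq, TAIR10.1, plus strand, chr3:16524995-16525244 for *LOX2* and chr1:27308263-27308512 for *LOX4*). Capitals mark CACATG in *LOX2*, 97 to 92 bases before the start, and AACGTG in *LOX4*, 94 to 89 bases before it, which are variants of the hexamer CACGTG that MYC factors are known to bind.
LOX2: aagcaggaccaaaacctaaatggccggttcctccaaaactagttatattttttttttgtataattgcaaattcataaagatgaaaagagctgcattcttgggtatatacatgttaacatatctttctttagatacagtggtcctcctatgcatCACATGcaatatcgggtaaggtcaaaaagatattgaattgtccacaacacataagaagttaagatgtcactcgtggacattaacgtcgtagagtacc
LOX4: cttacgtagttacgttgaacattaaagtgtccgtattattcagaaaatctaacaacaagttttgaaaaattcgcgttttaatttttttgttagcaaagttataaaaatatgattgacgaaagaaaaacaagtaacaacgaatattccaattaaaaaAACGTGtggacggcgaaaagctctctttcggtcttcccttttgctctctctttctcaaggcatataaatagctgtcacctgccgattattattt
Both strands of the 250 bases before each start were searched for the 3 hexamers, which overlap in no position here. CACATG lay in 3 of the 10 promoters, those of *LOX2*, *LOX3* and *AOC4*, and in 11.1% of 27443 promoters of the annotation. The window of *AOC4* overlaps 1 other coding gene. AACGTG lay in 2 of the 10, those of *LOX4* and *AOC1*, and in 7.54% of all. The windows describe letters only, and the authors' files hold no coordinates.

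*LOX2* (AT3G45140, TAIR10.1 chromosome 3, 16525245 to 16529352) is known to make most of the jasmonate of wounded leaves and was the most abundant of the 10 in jazD. It had 2883, 2863 and 2936 CPM in jazD cdk8-1, 4694, 4854 and 4928 in jazD, 457, 449.9 and 500.3 in cdk8-1 and 565, 573 and 556 in Col-0. Libraries of the 4 genotypes did not overlap. The level was 8.54-fold that of Col-0 in jazD (log2 3.09 ± 0.05, an approximate SE from the fit, as in what follows), and in jazD cdk8-1 it was 60.0% of the jazD level (log2 −0.74 ± 0.05). In cdk8-1 it fell to 469.2 ± 27.2 CPM, against 564.7 ± 8.18 CPM in Col-0 (SD, n = 3 each), a log2 change of −0.27 ± 0.05. Even so, *LOX2* in jazD cdk8-1 was 6.17-fold its level in cdk8-1 and 5.13-fold that in Col-0.

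*LOX4* (AT1G72520, chromosome 1, 27308513 to 27312756) and *LOX3* (AT1G17420, chromosome 1, 5977323 to 5981521) are close relatives, known to act together in male fertility, whose coding sequences are 81.07% identical. *LOX4* had 7.62, 8.37 and 8.99 CPM in jazD cdk8-1, 30.6, 37.5 and 29.7 in jazD, 2.79, 3.31 and 3.27 in cdk8-1 and 8.04, 7.68 and 8.50 in Col-0. The 3 libraries of jazD stood above all others, those of cdk8-1 below all others, and those of jazD cdk8-1 overlapped with Col-0. *LOX4* was 4.05-fold higher in jazD than in Col-0 (log2 2.02 ± 0.09), but in jazD cdk8-1 it kept 25.6% of the jazD level (−1.97 ± 0.09), the lowest share of the 10 genes. Its change in jazD cdk8-1 against Col-0 was 0.05 ± 0.11 (adjusted p = 0.778, edgeR), with a 95% interval of −0.21 to 0.30 on the log2 scale. In cdk8-1 *LOX4* fell by 1.37 ± 0.13 relative to Col-0, the largest change of the 10 in that comparison, and from that lower base it rose by 1.42 ± 0.13 in jazD cdk8-1 against cdk8-1.

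*LOX3* had 24.0, 23.2 and 23.5 CPM in jazD cdk8-1, 37.2, 37.4 and 38.4 in jazD, 16.3, 16.5 and 14.7 in cdk8-1 and 21.0, 22.6 and 19.7 in Col-0. Every library of jazD exceeded every other, and every library of cdk8-1 was below the rest. The rise in jazD against Col-0 was 1.78-fold (log2 0.83 ± 0.06), and the gene fell by 0.68 ± 0.06 in jazD cdk8-1 relative to jazD and by 0.41 ± 0.07 in cdk8-1 relative to Col-0. Set against Col-0, *LOX3* in jazD cdk8-1 changed by 0.16 ± 0.06 (adjusted p = 0.0712, edgeR). Without Col-0 replicate 2, the highest of its group, that change was 0.21 (adjusted p = 0.0313, edgeR).

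*LOX6* (AT1G67560, chromosome 1, 25319804 to 25324581), known for its part in the fast jasmonate response near the xylem, had the smallest change of the 10 in jazD. It had 47.2, 46.5 and 48.9 CPM in jazD cdk8-1, 52.3, 52.5 and 46.1 in jazD, 34.6, 29.9 and 30.4 in cdk8-1 and 36.6, 41.6 and 37.3 in Col-0. Libraries of jazD cdk8-1 and jazD overlapped, and both stood above those of the lines with intact *JAZ* genes. In jazD *LOX6* rose 1.31-fold over Col-0 (log2 0.39 ± 0.07, adjusted p = 7.44e-05, edgeR). Between jazD cdk8-1 and jazD the change was −0.08 ± 0.07 (adjusted p = 0.353, edgeR), with a 95% interval of −0.23 to 0.07, and its sign turned on TPM, to 0.058. Relative to the median of all genes on that scale, *LOX6* changed by −0.0675. In cdk8-1 it fell by 0.29 ± 0.07 relative to Col-0 (adjusted p = 0.00378, edgeR), a call not made on TPM (−0.19, adjusted p = 0.116, limma). That TPM change was −0.263 relative to the median of all genes.

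*AOS* (AT5G42650, chromosome 5, minus strand, 17097564 to 17099595) is the single gene of its step, a cytochrome P450 of the CYP74 family, and its promoter is shown because it alone of the 10 holds the full hexamer CACGTG, in capitals, in the last 6 bases before the annotated start (TAIR10.1, chr5:17099596-17099845, minus strand). That hexamer lies in 6.49% of all promoters.
AOS: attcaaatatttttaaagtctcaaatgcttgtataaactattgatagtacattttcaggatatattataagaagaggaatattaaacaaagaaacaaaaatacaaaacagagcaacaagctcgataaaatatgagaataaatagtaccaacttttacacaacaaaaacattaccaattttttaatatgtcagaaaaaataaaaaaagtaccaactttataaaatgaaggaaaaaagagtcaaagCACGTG
*AOS* had 718, 744 and 737 CPM in jazD cdk8-1, 1020.2, 997 and 1028 in jazD, 254, 268 and 279 in cdk8-1 and 262, 251 and 273 in Col-0. The 2 lines with *jaz* mutations did not overlap with each other or with the rest, while cdk8-1 and Col-0 overlapped. The level in jazD was 3.87-fold that in Col-0 (log2 1.95 ± 0.05), and jazD cdk8-1 had 72.2% of it (−0.47 ± 0.04). With intact *JAZ* genes the change in cdk8-1 was 0.03 ± 0.04 (adjusted p = 0.716, edgeR). That sign turned without Col-0 replicate 2 (−0.0027) or cdk8-1 replicate 3 (−0.0056), and on TPM the change was called at 0.11 (adjusted p = 0.0487, limma). Relative to the median of all genes on TPM the change was 0.0356.

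*AOC1*, *AOC2* and *AOC3* lie one after another on the plus strand of chromosome 3, with no coding gene between them, and *AOC4* lies on chromosome 1. *AOC1* (AT3G25760) spans 9403779 to 9405338, *AOC2* (AT3G25770) begins 1330 bases farther and spans 9406669 to 9408071, and *AOC3* (AT3G25780) begins 1088 bases after that and spans 9409160 to 9411090. Coding sequences of *AOC1* and *AOC2* are 90.29% identical, but they share no run of 100 bases, and every count of the 10 genes was a whole number. Shorter runs and untranslated parts were not compared, so whether reads could match both genes was not tested. Bases before the starts of the first 2 genes (chr3:9403529-9403778 and chr3:9406419-9406668, plus strand) are shown because these neighbours moved most alike of the cyclase genes, with the longest run that both hold in capitals.
AOC1: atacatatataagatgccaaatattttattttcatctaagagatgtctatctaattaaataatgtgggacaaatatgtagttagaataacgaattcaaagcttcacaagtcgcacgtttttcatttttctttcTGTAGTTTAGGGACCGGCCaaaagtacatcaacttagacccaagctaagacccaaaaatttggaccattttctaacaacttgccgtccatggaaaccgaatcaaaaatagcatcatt
AOC2: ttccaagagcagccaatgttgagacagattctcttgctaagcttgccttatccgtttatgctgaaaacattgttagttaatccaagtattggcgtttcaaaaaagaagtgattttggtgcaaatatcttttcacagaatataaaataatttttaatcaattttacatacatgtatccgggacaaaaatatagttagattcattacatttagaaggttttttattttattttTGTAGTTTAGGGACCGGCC
The shared run of 19 bases lies 117 to 99 bases before the start of *AOC1* and 19 to 1 bases before that of *AOC2*. No other pair of the 10 promoters shares a run of more than 11 bases.

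*AOC1* had 203, 213 and 209 CPM in jazD cdk8-1, 293, 288 and 290.0 in jazD, 31.3, 35.7 and 35.9 in cdk8-1 and 28.6, 31.0 and 32.6 in Col-0. The 2 lines with *jaz* mutations stood apart from each other and from the rest, and cdk8-1 overlapped with Col-0. *AOC1* rose 9.44-fold in jazD over Col-0 (log2 3.24 ± 0.06), the largest fold of the 10, and in jazD cdk8-1 it had 71.7% of the jazD level (−0.48 ± 0.05). In cdk8-1 its change was 0.16 ± 0.06 (adjusted p = 0.0644, edgeR). That change was called on TPM (0.24, adjusted p = 0.00405, limma), where it was 0.163 relative to the median of all genes. It was also called when Col-0 replicate 3 was left out (0.21, edgeR adjusted p = 0.0319) or cdk8-1 replicate 1 (0.22, edgeR adjusted p = 0.0122).

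*AOC2*, the most abundant cyclase gene, had 579, 591 and 598 CPM in jazD cdk8-1, 933, 963 and 895 in jazD, 134, 144 and 148 in cdk8-1 and 127, 144 and 133 in Col-0. The groups overlapped as for *AOC1*. It was 6.89-fold higher in jazD than in Col-0 (log2 2.78 ± 0.05), and jazD cdk8-1 kept 63.3% of the jazD level (−0.66 ± 0.05). In cdk8-1 the change was 0.07 ± 0.05 (adjusted p = 0.333, edgeR), called on TPM (0.16, adjusted p = 0.0442, limma). Relative to the median of all genes on TPM the change was 0.0841.

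*AOC3* was the least abundant cyclase gene. It had 5.01, 4.93 and 4.49 CPM in jazD cdk8-1, 8.71, 8.99 and 7.05 in jazD, 1.95, 2.07 and 2.11 in cdk8-1 and 2.80, 2.81 and 2.95 in Col-0. No 2 genotypes overlapped. In jazD it was 2.90-fold higher than in Col-0 (log2 1.53 ± 0.13), and jazD cdk8-1 kept 58.0% of the jazD level (−0.79 ± 0.12). It stayed 0.75 ± 0.14 above Col-0 in jazD cdk8-1 on the log2 scale. The fall in cdk8-1 relative to Col-0 was 0.48 ± 0.16 (adjusted p = 0.0306, edgeR), with 39 to 44 counts in the libraries of cdk8-1 and 54 to 59 in those of Col-0. That call was lost with DESeq2 (adjusted p = 0.12), in a fit to these 2 genotypes (adjusted p = 0.0589, edgeR) and without any one of the 6 libraries (adjusted p of 0.056 to 0.0882, edgeR).

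*AOC4* (AT1G13280, chromosome 1, 4547388 to 4548894) had 62.4, 64.5 and 58.8 CPM in jazD cdk8-1, 79.2, 76.4 and 74.8 in jazD, 39.5, 40.1 and 41.7 in cdk8-1 and 46.1, 39.1 and 40.7 in Col-0. Libraries of jazD stood highest and those of jazD cdk8-1 next, while cdk8-1 and Col-0 overlapped. Its rise in jazD over Col-0 was 1.83-fold (log2 0.87 ± 0.06), and jazD cdk8-1 had 80.6% of the jazD level (−0.31 ± 0.06, adjusted p = 0.000162, edgeR). The change in cdk8-1 was −0.05 ± 0.06 (adjusted p = 0.578, edgeR), and its sign turned on TPM (0.035) and without Col-0 replicate 1 (0.022). Relative to the median of all genes on TPM the change was −0.0406.

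*OPR3* (AT2G06050, chromosome 2, minus strand, 2359114 to 2362375) encodes the peroxisomal reductase without which plants are male sterile. It had 72.0, 73.8 and 77.3 CPM in jazD cdk8-1, 84.2, 85.7 and 82.9 in jazD, 39.8, 41.9 and 39.9 in cdk8-1 and 34.8, 35.4 and 33.8 in Col-0. All libraries of cdk8-1 were above those of Col-0, and no 2 genotypes overlapped. *OPR3* rose 2.43-fold in jazD over Col-0 (log2 1.28 ± 0.05) and by 0.22 ± 0.05 in cdk8-1 over Col-0 (adjusted p = 0.0023, edgeR). In jazD cdk8-1 it was 88.3% of the jazD level (−0.18 ± 0.05, adjusted p = 0.00373, edgeR). On TPM that last change was −0.034 (adjusted p = 0.608, limma), or −0.16 relative to the median of all genes on that scale.

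Genes of one step differed in how far they moved, which was tested on TPM ratios within a library, since such a ratio does not depend on how libraries are scaled. The log2 ratio of *LOX6* to *LOX2* was 2.37 lower in the lines with *jaz* mutations than in those with intact *JAZ* genes, that of *LOX3* to *LOX2* 2.16 lower, and that of *LOX4* to *LOX2* 1.15 lower. For the cyclases, *AOC4* to *AOC1* was 2.18 lower, *AOC3* to *AOC1* 1.54 lower, and *AOC2* to *AOC1* 0.50 lower. Each of the 6 ratios gave p = 0.005 in an exact two-sided permutation test within CDK8 genotype (6 against 6 libraries, 400 relabellings), also after adjustment over the 6, and 0.005 is the smallest p this design allows. For *LOX4* to *LOX2* the libraries of the 2 kinds of line overlapped, and for the other ratios they did not.

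**Figure D3:**
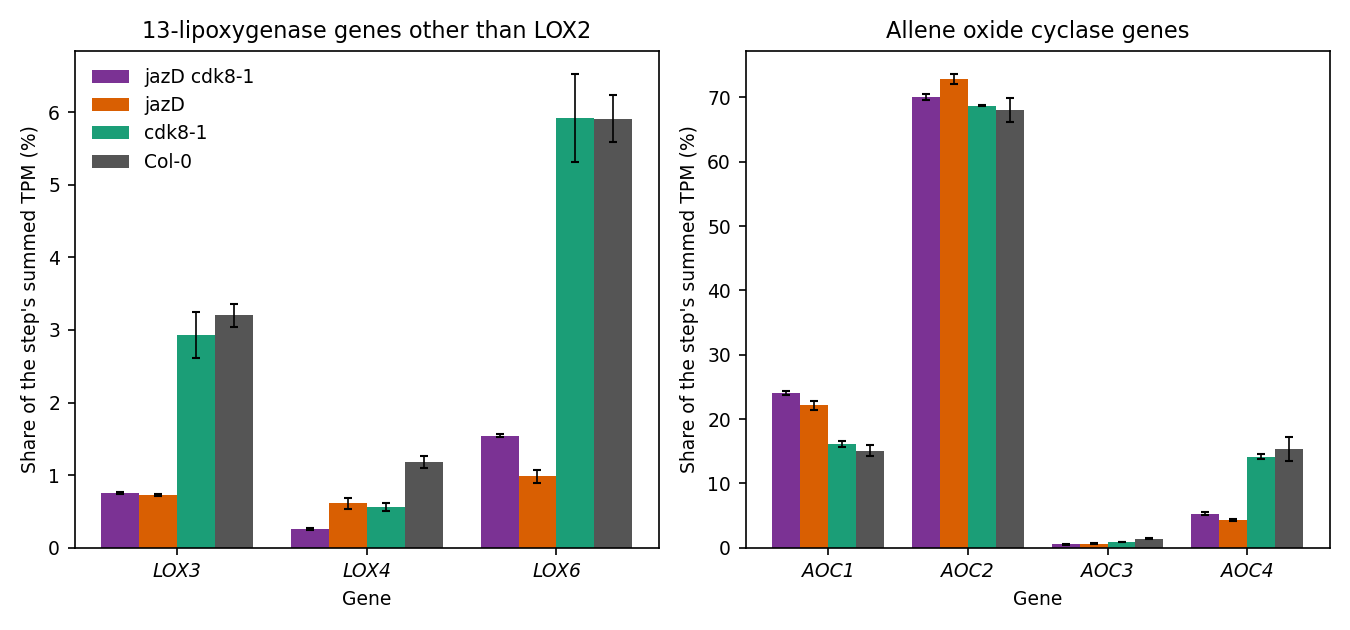
Share of the summed TPM of a step that fell to each gene, in percent (mean with SD, n = 3 libraries per genotype), for the 13-lipoxygenase genes other than *LOX2* (left) and the allene oxide cyclase genes (right). *LOX6* made up 1.55% and 0.985% in jazD cdk8-1 and jazD, against 5.91% in both cdk8-1 and Col-0, and *AOC4* made up 5.31% and 4.36%, against 14.2% and 15.4%.

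As shares of transcripts per length, *LOX2* made up 97.4% of the summed 13-lipoxygenase TPM in jazD cdk8-1, 97.7% in jazD, 90.6% in cdk8-1 and 89.7% in Col-0. The lipoxygenase sum was 1196 ± 38.1 TPM in jazD cdk8-1, 1804 ± 66.5 in jazD, 211.6 ± 15.0 in cdk8-1 and 242.5 ± 9.87 in Col-0 (SD, n = 3 each). The cyclase sum was 1210 ± 40.0 TPM in jazD cdk8-1, 1649 ± 65.5 in jazD, 298.7 ± 13.6 in cdk8-1 and 269.9 ± 14.9 in Col-0. Within it *AOC2* held 70.0%, 72.9%, 68.7% and 68.1% in the same order of lines, and *AOC1* 24.1%, 22.2%, 16.2% and 15.1%. The shares of *AOC1* and *LOX2* were thus larger in every library with *jaz* mutations than in any with intact *JAZ* genes. Those of *AOC3*, *AOC4*, *LOX3* and *LOX6* were smaller in every library with *jaz* mutations than in any with intact *JAZ* genes.

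Ordered by mean TPM, *LOX2* came first in jazD cdk8-1 (1165), jazD (1762) and Col-0 (217.5), followed by *AOC2* and *AOS*, which overlapped in Col-0 (184.0 and 168.1). In cdk8-1 *AOC2* (205.3), *LOX2* (191.7) and *AOS* (181.7) overlapped between neighbours in the order. *AOC4* and *AOC1* overlapped in Col-0 (41.4 and 40.8 TPM), while in jazD *AOC1* stood at 365.3 TPM, against 71.8 for *AOC4*. *AOC4* and *OPR3* overlapped in jazD cdk8-1 (64.2 and 61.7 TPM). *LOX4* was last in jazD cdk8-1 (3.11 TPM), cdk8-1 (1.18) and Col-0 (2.88). In jazD *LOX3* (13.1), *LOX4* (11.1) and *AOC3* (10.3) came last and overlapped between neighbours.

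The change that came with loss of CDK8 differed between backgrounds for 7 of the 10 genes. This was tested as an interaction, the log2 change in jazD cdk8-1 against jazD minus that in cdk8-1 against Col-0, for which 8.39% of all genes were called negative and 8.16% positive. All 7 calls were negative, with a median of −0.44 over the 10 genes against 0.00 over all genes. *AOC2* (−0.73 ± 0.07), *AOC1* (−0.64 ± 0.08) and *AOS* (−0.50 ± 0.06) had no change called by edgeR in cdk8-1 and were lower in jazD cdk8-1 than in jazD. On TPM (limma) these genes were called higher in cdk8-1 than in Col-0 and stayed called lower in jazD cdk8-1 than in jazD. *LOX2* (−0.47 ± 0.06) fell in both backgrounds and farther in jazD. *OPR3* (−0.40 ± 0.07) moved in opposite directions, higher in cdk8-1 than in Col-0 and lower in jazD cdk8-1 than in jazD, though its fall in jazD cdk8-1 was not called on TPM. The remaining calls were less firm. *LOX4* (−0.60 ± 0.17, adjusted p = 0.0179, edgeR) missed the threshold without cdk8-1 replicate 2 (adjusted p = 0.0577, edgeR) or replicate 3 (adjusted p = 0.0565, edgeR). *AOC4* (−0.26 ± 0.08, adjusted p = 0.0356, edgeR) was lost on TPM (adjusted p = 0.109, limma). It was also lost without Col-0 replicate 2 or 3, cdk8-1 replicate 3, jazD replicate 1 or jazD cdk8-1 replicate 3 (adjusted p of 0.0717 to 0.104, edgeR). *LOX3* was −0.26 ± 0.09 (adjusted p = 0.0537, edgeR), and it was called with RLE scaling (adjusted p = 0.0493, edgeR) and when Col-0 replicate 2 or cdk8-1 replicate 3 was left out (edgeR adjusted p of 0.0276 and 0.0306). *AOC3* was −0.30 ± 0.20 (adjusted p = 0.346, edgeR) and *LOX6* 0.20 ± 0.10 (adjusted p = 0.162, edgeR).

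Genes of touch and of the clock moved with these comparisons. The summed level of 5 touch genes was 80.4 to 91.4 CPM in jazD cdk8-1, 194.0 to 281.3 in jazD, 63.9 to 78.0 in cdk8-1 and 105.0 to 137.7 in Col-0. *TCH3* gave most of that sum in jazD and Col-0. Its means were 41.1 CPM in jazD cdk8-1, 166.2 in jazD, 26.1 in cdk8-1 and 80.1 in Col-0. Of the 5, 4 were called higher in jazD than in Col-0 and 4 lower in jazD cdk8-1 than in jazD, and 1 was called higher and 2 lower in cdk8-1 than in Col-0. The summed level of 10 clock genes was 542.8 to 554.8 CPM in jazD cdk8-1, 679.3 to 703.8 in jazD, 489.2 to 528.4 in cdk8-1 and 543.1 to 591.8 in Col-0. That sum mixes genes that moved in opposite directions. In jazD against Col-0, 6 were called higher, *ELF4* (log2 2.07), *LUX* (1.57), *PRR5* (1.32), *TOC1* (1.11), *GI* (0.62) and *ELF3* (0.53). The 4 called lower were *PRR9* (−1.77), *CCA1* (−1.58), *LHY* (−1.29) and *PRR7* (−0.16). In jazD cdk8-1 against jazD, 3 were called higher and 5 lower. Against Col-0, cdk8-1 had 1 clock gene called higher and 6 lower. Of the 5 mesophyll markers, 3 were called lower in jazD than in Col-0, and 3 higher and 1 lower in jazD cdk8-1 than in jazD. For comparison with these counts, 21.8% of all tested genes were called higher and 20.9% lower for jazD against Col-0. Those shares were 16.9% and 19.0% for jazD cdk8-1 against jazD, and 11.7% and 13.8% for cdk8-1 against Col-0. The part of handling, of the hour of harvest and of tissue makeup in the results for the 10 genes was not tested, and the hour of harvest is not given in the sources used here.

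Beside the 10, of 23 genes of jasmonate synthesis listed for fatty acid supply, side branches, transport, beta-oxidation and conjugation, 21 were tested. *DAD1*, a lipase gene of flowers, had no count in any library, and *DGL*, its relative, had 1 count in all. In jazD 12 of the 21 were called higher and 4 lower than in Col-0, with a median of 0.18. Of all tested genes, 21.8% were called higher and 20.9% lower there. *OPCL1*, whose enzyme joins the product of OPR3 to coenzyme A for beta-oxidation, was the downstream gene with the largest change in jazD, at 73.5 ± 3.51 CPM in jazD cdk8-1, 124.6 ± 1.15 in jazD, 34.0 ± 2.92 in cdk8-1 and 47.0 ± 0.556 in Col-0 (SD, n = 3 each). It rose by 1.41 ± 0.05 in jazD against Col-0, and fell by 0.76 ± 0.05 in jazD cdk8-1 relative to jazD and by 0.47 ± 0.06 in cdk8-1 relative to Col-0. *KAT5*, a thiolase gene of the chromosome 5 stretch named above (0.77 ± 0.06), and *FAD3*, a desaturase gene that makes linolenic acid (0.42 ± 0.04), rose as well in jazD against Col-0.

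*HPL1* is the gene of hydroperoxide lyase, an enzyme known to take the same hydroperoxide as AOS into volatile aldehydes. Its values here are of RNA, and whether active enzyme is made in these lines was not tested. *HPL1* had 20.6 ± 0.315 CPM in jazD cdk8-1, 19.1 ± 1.05 in jazD, 3.31 ± 0.471 in cdk8-1 and 4.47 ± 0.875 in Col-0. It was 4.28-fold higher in jazD than in Col-0, and it rose by 2.63 ± 0.11 on the log2 scale in jazD cdk8-1 against cdk8-1. Between jazD cdk8-1 and jazD its change was 0.11 ± 0.09 (adjusted p = 0.344, edgeR), where *AOS* was called lower, and the interaction for *HPL1* was 0.54 ± 0.17 (adjusted p = 0.0297, edgeR).

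In jazD cdk8-1 against jazD, 6 of the 21 were called lower and 1 higher, with a median of −0.01. Of all tested genes, 19.0% were called lower and 16.9% higher there. Beside *OPCL1*, the calls with the smallest adjusted p were those of *ACX4*, an acyl-CoA oxidase gene (−0.23 ± 0.04), *FAD3* (−0.18 ± 0.04) and *LOX5*, a 9-lipoxygenase gene (−0.60 ± 0.13). In cdk8-1 against Col-0, 7 were called higher and 6 lower, where 11.7% of all genes were called higher and 13.8% lower. Among these calls were *FAD8*, a plastid desaturase gene (0.44 ± 0.05), *OPCL1*, *LOX5* (−0.89 ± 0.12) and *ACX4* (−0.29 ± 0.04). The interaction gave 3 positive and 4 negative calls of 21, where 8.16% of all genes were called positive and 8.39% negative. Its calls were led by *FAD8* (−0.44 ± 0.06), *KAT5* (−0.56 ± 0.09), *OPR1*, a relative of *OPR3* (−0.56 ± 0.10), and *PXA1*, a peroxisomal transporter gene (0.30 ± 0.08).

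In jazD cdk8-1, 13 of the 21 were called higher and 2 lower than in Col-0, and 10 higher and 2 lower than in cdk8-1. Of all tested genes, 16.3% were called higher and 16.1% lower than in Col-0, and 12.7% higher and 11.2% lower than in cdk8-1. Against Col-0 the leading calls were *HPL1* (2.21 ± 0.11), *OPCL1* (0.65 ± 0.05), *LOX5* (−1.07 ± 0.12) and *KAT2*, a thiolase gene (0.39 ± 0.04). Against cdk8-1 they were *HPL1*, *OPCL1* (1.11 ± 0.06), *AIM1*, a multifunctional protein gene of beta-oxidation (0.36 ± 0.04), and *FAD8* (−0.38 ± 0.04).

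**Figure D4:**
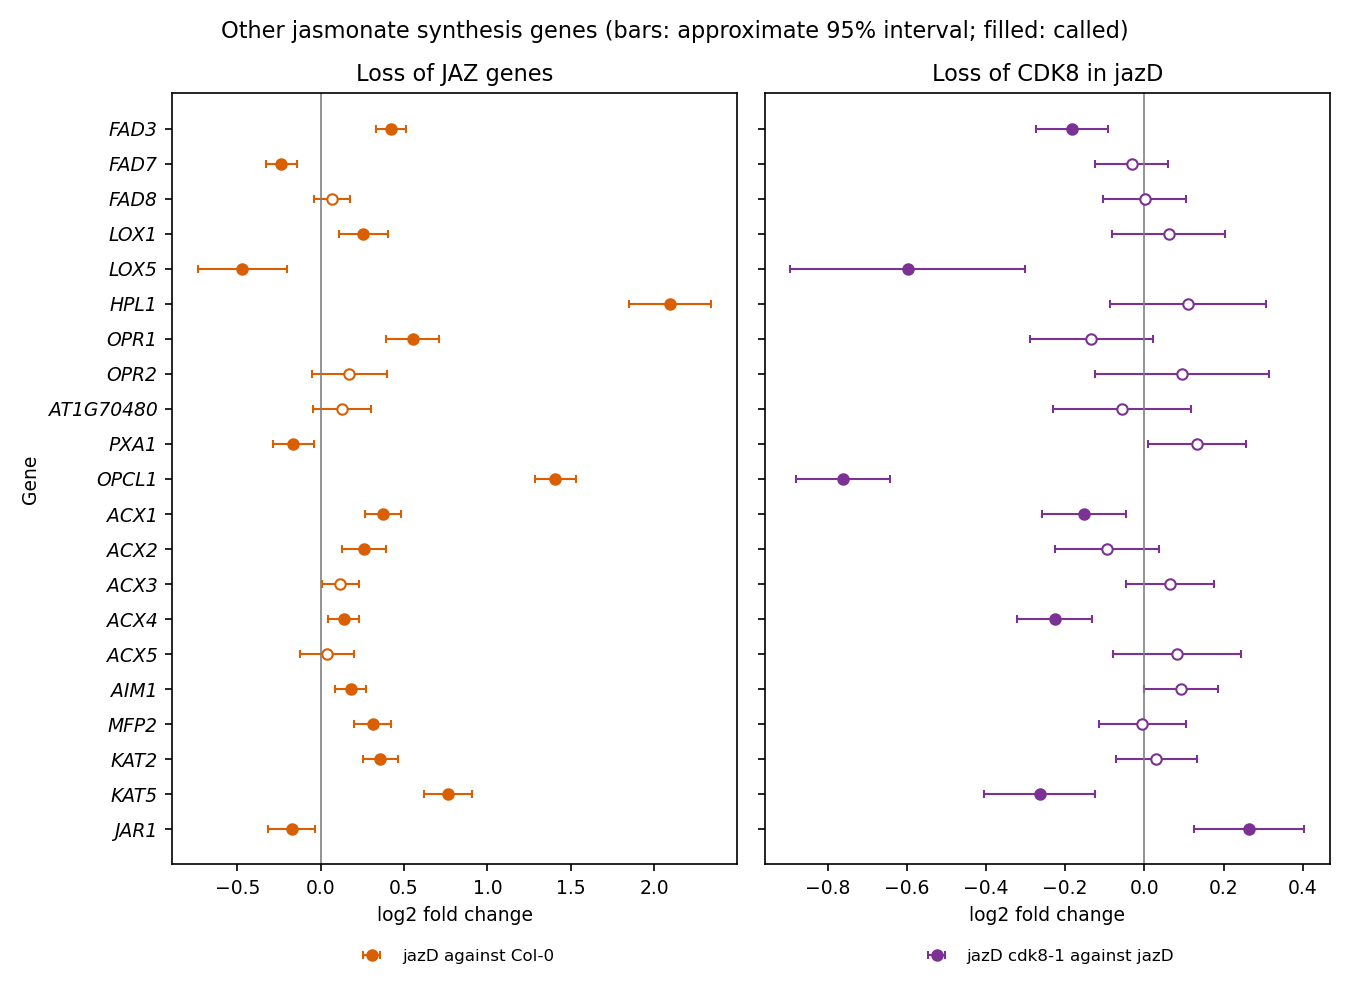
Log2 fold change of the 21 tested genes of jasmonate synthesis beside the 10, with an approximate 95% interval, in jazD against Col-0 (left) and in jazD cdk8-1 against jazD (right). Filled points passed an adjusted p of 0.05, and *HPL1* lies farthest to the right on the left while *OPCL1* lies farthest below 0 on the right.

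The 10 genes fell into patterns that resembled one another to different degrees across the 12 libraries, which share genotype and depth, so that the correlations below are descriptions. *AOS* and *AOC2* were closest (Pearson r = 0.9982 of log2 CPM), *LOX2* and *AOS* had r = 0.9961, and *LOX4* and *OPR3* were least alike (r = 0.7065). Outside the 10, of 16399 tested genes whose log2 CPM averaged 1 or more, those nearest to *LOX2* were AT5G05600 (r = 0.999), AT4G11320 (0.9983) and *CORI3* (0.9982). AT4G11320 was also among the nearest to *AOS* (0.998) and *AOC2* (0.9974), with AT2G43530 (0.9976 and 0.9965) and *PAI2* (0.9966 and 0.9974). *AOC1* was nearest to AT1G14250 (0.9989), AT3G28220 (0.998) and AT5G28810 (0.9969).

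*LOX3* was nearest to *At17.1* (0.9912), *MAML-4* (0.99) and AT4G18205 (0.9896), and *LOX4* to *OZF2* (0.9949), AT5G11610 (0.9942) and *MEE14* (0.9941). *AOC3* was nearest to *MPK3* (0.9923), *PDC2* (0.9922) and AT3G16530 (0.9921). For *AOC4* the nearest were AT2G04080 (0.9917), *ORA59* (0.9897) and *CSLA10* (0.9884), and for *OPR3* they were *ATCSLA15* (0.9924), AT3G58570 (0.9924) and *PRR3* (0.9916). *LOX6* had the weakest neighbours, *ARFA1E* (0.9622), *ILL6* (0.9604) and *GBF4* (0.9577), and 6 genes with r over 0.95, against 205 to 299 for each of the other 9 genes.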

How the data were processed

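The authors deposited expected counts for each locus, from RSEM 1.2.25 and the TAIR10 build, per the file headers and the submitters' processing notes. TPM values were deposited beside them, per the file headers. How reads were aligned, and whether strand was kept, is not given here. Integrity scores of the RNA were 6.5 or more, per the labels. Of the expected counts 96.58% were whole, and all were rounded. They were tested in edgeR 4.0.16 (R 4.3.3) with filterByExpr, TMM factors of 0.9543 to 1.056, 1 mean per genotype over the 12 libraries (8 residual degrees of freedom, common biological coefficient of variation 5.07%) and 2-sided quasi-likelihood tests, with calls at an adjusted p (Benjamini-Hochberg) of 0.05 over 19059 genes. The SE of a fold is its size divided by the square root of its F statistic. CPM uses the TMM-scaled library sizes and serves within a gene, and TPM serves between genes. Alternatives used DESeq2 1.42.0 and limma 3.58.1 on log2(TPM + 1), the latter also for the TPM values in the report.

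The 10 genes, the other lists and the tests were chosen with earlier results of these data known. All 10 are named throughout. Of the 23 other pathway genes, at most 4 called ones with the smallest adjusted p are named per comparison, and *HPL1* and *KAT5* beyond that after their values were seen. The bounds of the chromosome 5 stretch were also chosen after values were seen. For each of the 10, the 3 genes of highest correlation are named. Same-numbered replicates did not deviate together (correlations −0.0583 to 0.0508), so no block was used. The edgeR step was run on counts simulated from its own fitted model, with far fewer genes changed than were called in jazD. That run checks the code, and not the scaling or the model for these data. Promoters and coding sequences were read from RefSeq's TAIR10.1 by locus name, Biopython 1.88 aligning the latter, and all 71 listed genes matched. With 3 pools per genotype, the edgeR tests set differences against the spread between pools, estimated with information shared over genes and genotypes. The permutation p-values rank the observed difference among relabellings of the libraries.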

Additional observations from a re-analysis of the deposited data

Results flagged for a closer look

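For 7 of the 10 genes the change that came with *cdk8-1* differed between the jazD background and the background with intact *JAZ* genes, by the interaction test of edgeR, where 8.39% of all tested genes were called negative and 8.16% positive. The interaction was −0.73 for *AOC2*, −0.64 for *AOC1*, −0.50 for *AOS*, −0.47 for *LOX2*, −0.40 for *OPR3*, −0.60 for *LOX4* and −0.26 for *AOC4* on the log2 scale. Of these, *OPR3* alone was called in opposite directions in the 2 backgrounds by edgeR, and its fall in jazD cdk8-1 was not called on TPM (−0.034, adjusted p = 0.608, limma). On TPM, *AOC2*, *AOC1* and *AOS* were instead called in opposite directions. They were higher in cdk8-1 than in Col-0 (0.16, 0.24 and 0.11, adjusted p of 0.0442, 0.00405 and 0.0487, limma). Relative to the median of all genes those rises were 0.0841, 0.163 and 0.0356. The same genes stayed called lower in jazD cdk8-1 than in jazD (−0.503, −0.325 and −0.325). The call of *LOX4* was lost without cdk8-1 replicate 2 or 3 (adjusted p of 0.0577 and 0.0565, edgeR). That of *AOC4* was lost on TPM (adjusted p = 0.109, limma) and without any one of 5 libraries (adjusted p of 0.0717 to 0.104, edgeR).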

How the results depend on the processing

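Of 1130 values of a log2 fold change of the 10 genes under an alternative, 1097 kept their direction and their side of the threshold, 18 lost the call, 9 gained it and 6 changed sign. None of the sign changes was of a called value. They were *AOC4* in cdk8-1 against Col-0 on TPM (0.035) and without Col-0 replicate 1 (0.022), *LOX6* in jazD cdk8-1 against jazD on TPM (0.058), *AOS* in cdk8-1 against Col-0 without Col-0 replicate 2 (−0.0027) or cdk8-1 replicate 3 (−0.0056), and *LOX4* in jazD cdk8-1 against Col-0 without jazD cdk8-1 replicate 3 (−0.011). With a library left out, the 3 changes ranged from −0.10 to 0.022 (*AOC4*), −0.0056 to 0.061 (*AOS*) and −0.011 to 0.099 (*LOX4*). Relative to the median of all genes on TPM, *AOC4* in cdk8-1 against Col-0 was −0.0406, and *LOX6* in jazD cdk8-1 against jazD was −0.0675. The cause was not tested. In cdk8-1 against Col-0 the genes called higher were 4 on TPM and 1 to 2 with a library left out, against 1. Replicate numbers did not pair the samples, and with the replicate number as a block no call of the 10 genes changed, while calls over all genes were 7934 against 8153 in jazD against Col-0 and 3021 against 3154 in the interaction. The 6 ratios between jazD lines and lines with intact *JAZ* genes stayed past the threshold under the block, on counts and without any one library.

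The ratios were also compared between cdk8-1 lines and CDK8 lines, an alternative chosen after seeing the data. With the block, exact permutation tests gave −1.16 for *LOX4* to *LOX2* (adjusted p = 0.0938) and −0.47 for *AOC3* to *AOC1* (adjusted p = 0.0938). They gave −0.13 for *AOC2* to *AOC1* (adjusted p = 0.125). All were past the threshold without the block, with the same differences. The block allows swaps only between libraries of one replicate number and *JAZ* genotype, so few relabellings exist and the smallest possible p is larger. These adjusted p-values therefore cannot decide whether the differences hold under the block. With a library left out, *AOC2* to *AOC1* ranged from −0.16 to −0.11 (adjusted p of 0.015 to 0.06, exact permutation), *LOX6* to *LOX2* from 0.28 to 0.36 (adjusted p of 0.045 to 0.128, exact permutation), *LOX3* to *LOX2* from −0.073 to 0.0062 and *AOC4* to *AOC1* from −0.054 to 0.038. *LOX3* to *LOX2* turned positive at 0.0062 without cdk8-1 replicate 3, and *AOC4* to *AOC1* at 0.038 without Col-0 replicate 1. Depth limits *AOC3* most, at 39 to 59 counts in the lines with intact *JAZ* genes.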

Other observations

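The ratios of genes of one step were also compared between lines with and without *cdk8-1*, a comparison added after the values were seen (6 against 6 libraries, exact two-sided permutation test within *JAZ* genotype, adjusted over 6 ratios). The log2 TPM ratio of *LOX4* to *LOX2* was 1.16 lower in the lines with *cdk8-1*, at −7.95 against −6.78 in the lines with CDK8 (difference −1.16, adjusted p = 0.03, exact permutation). That of *LOX3* to *LOX2* was −5.98 against −5.94 (difference −0.04, adjusted p = 0.792, exact permutation). Among cyclases, *AOC3* to *AOC1* was lower with *cdk8-1* (difference −0.47, adjusted p = 0.03, exact permutation), and so was *AOC2* to *AOC1* (difference −0.13, adjusted p = 0.03, exact permutation). For *LOX6* to *LOX2* the difference was 0.32 (adjusted p = 0.09, exact permutation), and for *AOC4* to *AOC1* it was −0.02 (adjusted p = 0.86, exact permutation). These differences average the 2 *JAZ* backgrounds, which were unlike for some ratios, and the difference between backgrounds was not tested. *AOC4* to *AOC1* was −2.18 in jazD cdk8-1 against −2.35 in jazD, but −0.19 in cdk8-1 against 0.02 in Col-0. *LOX6* to *LOX2* was −5.98 in jazD cdk8-1 against −6.64 in jazD, and −3.94 in cdk8-1 against −3.92 in Col-0. *LOX3* to *LOX2* was −7.01 in jazD cdk8-1 against −7.07 in jazD, but −4.95 in cdk8-1 against −4.81 in Col-0. *AOC3* to *AOC1* was −5.45 in jazD cdk8-1 against −5.16 in jazD, and −4.08 in cdk8-1 against −3.44 in Col-0.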
